A study of Danio rerio with 6 samples.

Results

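The Hox genes of the zebrafish were examined in whole larvae at 72 hours post fertilization. Members were all gene symbols made of hox, a cluster letter, a paralogue number and the letter a or b, after the rows of each symbol had been summed. This gave 49 genes on 53 rows, out of 37685 genes on 53709 rows. Of the 49 genes, 45 held enough counts to be tested. The control group was 3 libraries of the wild-type AB strain, labelled WT. The other group, GJB2-MO, was 3 libraries of AB larvae that had received, at the 1-cell stage, a morpholino against GJB2. GJB2 encodes a gap junction protein needed for hearing, and a morpholino is an antisense oligonucleotide meant to block the splicing or translation of 1 RNA. The oligonucleotide that defines the GJB2-MO group is 25 bases long and is printed here 5′ to 3′ from the labels, with capitals marking its only CAT, bases 18 to 20, which pairs with an ATG in an RNA.
GJB2-MO: taaagtgctccccaactCATcctgt
No larvae injected with a control oligonucleotide were analysed here. The labels give neither the number of larvae per library nor their clutches, so the p-values reflect only the spread of these libraries, which may be technical.

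Hox genes encode homeodomain transcription factors that give cells their address along the head to tail axis. Within a cluster, genes toward the 3′ end (low paralogue numbers) are used earlier and further forward, in the hindbrain and pharyngeal arches, and genes toward the 5′ end (high numbers) later and further back, in the trunk, tail and fins. They act with the TALE cofactors of the Meis, Pbx and Pknox families. Retinoic acid and Cdx factors switch them on in order, and Polycomb and trithorax complexes keep them silent or active. The teleost genome duplication left zebrafish with 7 clusters, written hoxaa, hoxab, hoxba, hoxbb, hoxca, hoxcb and hoxda. In whole larvae, fewer cells of a type and less RNA per cell cannot be told apart.

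Library totals ran from 14582030 to 19743658 counts, and the 49 Hox genes together held between 6604 and 8791 counts per library. No row is named gjb2. A connexin gene that may be the target, gjb8, had no counts on its plain row. Its row gjb8_1 held 7, 8 and 11 counts in control libraries against 114, 14 and 16 in GJB2-MO libraries. Since a morpholino can act without lowering the RNA it binds, the labels cannot be checked from these counts.

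Hox genes were expressed across all 13 paralogue groups in the control larvae, and the level varied more between genes than between libraries. Levels are given here as TPM, the authors' transcript abundance, which is scaled by gene length and sums to the same total in each library. The summed Hox level was 453 ± 26.8 TPM (SD, n = 3), with 422, 469 and 468 TPM in controls 1 to 3. The hoxca and hoxba clusters held the largest parts of it, at 31.7 ± 0.0546% and 28.7 ± 1.09%. The hoxda, hoxaa and hoxab clusters followed at 12.9 ± 0.731%, 12.8 ± 0.793% and 10.9 ± 0.701%, where hoxda and hoxaa differed by less than their SD. The hoxcb cluster held 2.83 ± 0.258%, and hoxbb held 0.191 ± 0.0695%. By position, the 10 anterior genes (paralogue groups 1 to 3) held 12.9 ± 0.436%, the 16 central genes (groups 4 to 8) 43.6 ± 1.61% and the 23 posterior genes (groups 9 to 13) 43.5 ± 1.73%.

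**Figure D1:**
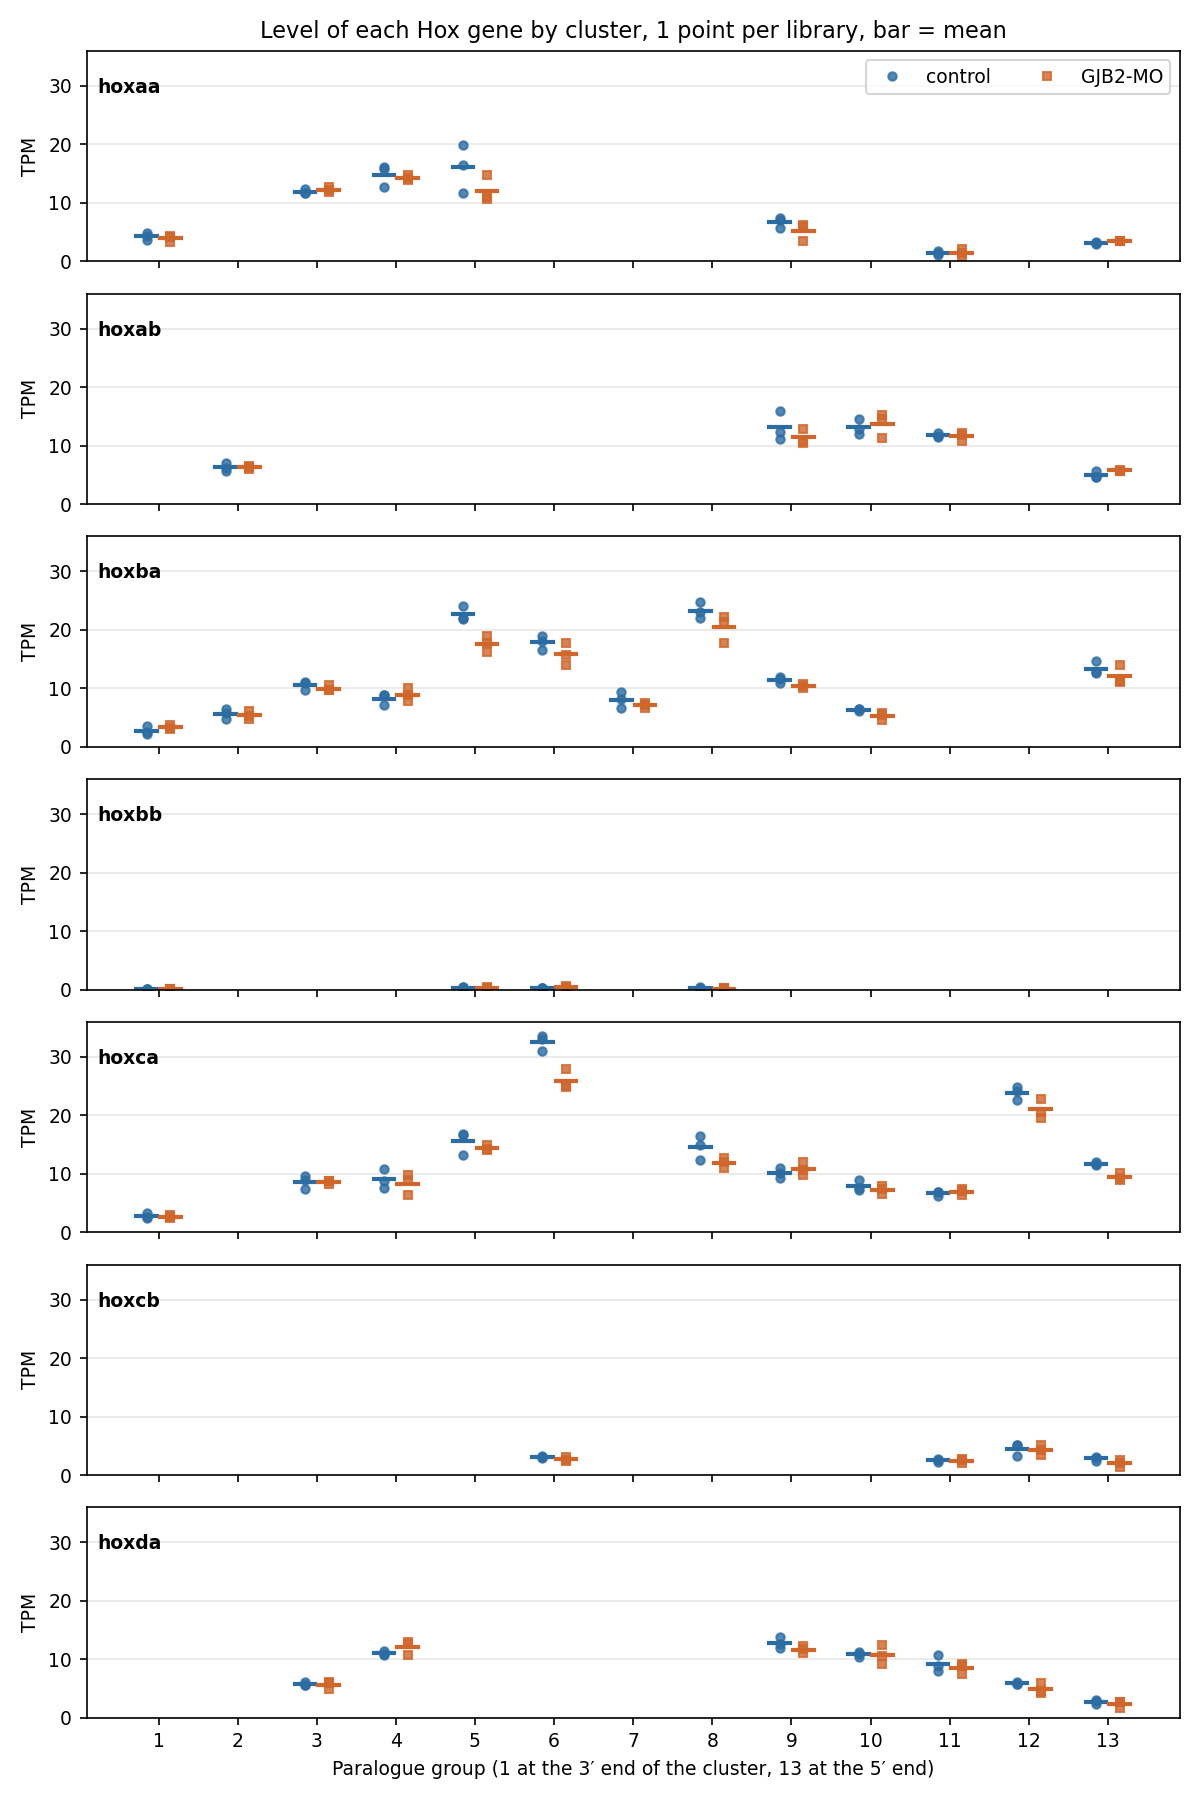
Level of each Hox gene in TPM (y axis) against its paralogue number (x axis), with 1 panel per cluster; circles are the 3 control libraries, squares the 3 GJB2-MO libraries and bars the group means. The highest points belong to hoxc6a, at 31.1 to 33.7 TPM in the controls, and all 4 hoxbb genes lie at the bottom of their panel.

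Levels rose and fell along each cluster with no single slope. In hoxba they started at 2.72 ± 0.708 TPM for hoxb1a, which gives a hindbrain segment its identity. They were 5.65 ± 0.921 for hoxb2a, 10.5 ± 0.70 for hoxb3a, 8.25 ± 1.02 for hoxb4a and 22.7 ± 1.26 for hoxb5a. They stayed at 17.9 ± 1.17 for hoxb6a and 23.3 ± 1.35 for hoxb8a, with a dip to 8.03 ± 1.43 for hoxb7a between them. This profile depends on the lengths implied by the authors' counts and FPKM, 687 bp for hoxb6a and 1256 bp for hoxb7a. In CPM these 2 genes were closer, at 7.55 ± 0.380 and 6.19 ± 1.02, while hoxb8a stood at 26.2 and hoxb3a at 45.0. Further 5′, hoxb9a stood at 11.5 ± 0.541, hoxb10a at 6.32 ± 0.178 and hoxb13a at 13.4 ± 1.18 TPM. In hoxda the mean control TPM fell at each step from hoxd9a to hoxd13a, the end of the cluster that serves the distal fin or limb. These means were 12.8 ± 1.00, 10.8 ± 0.463, 9.17 ± 1.38, 5.94 ± 0.207 and 2.76 ± 0.419 TPM, and the step from hoxd10a to hoxd11a was about the size of the spread of hoxd11a. In control 1 hoxd11a stood above hoxd10a, at 10.7 against 10.4 TPM. The first step also depends on the implied lengths, 1337 bp for hoxd9a and 1627 bp for hoxd10a. In CPM the control means of these 2 genes were 10.5 ± 0.622 and 10.9 ± 0.345, with no fall.

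The 2 highest genes of each cluster in control level are described next, 1 value per library. In hoxaa these were hoxa5a, with 11.7, 16.5 and 19.9 TPM in controls 1 to 3 and 10.6, 11.0 and 14.7 TPM in GJB2-MO libraries 1 to 3, and hoxa4a. The level of hoxa4a was 12.7, 16.1 and 15.7 TPM in the controls and 14.3, 13.8 and 14.7 TPM in GJB2-MO. The group ranges of both genes overlapped. In hoxab the level of hoxa9b, a gene also used in fin buds, was 11.2, 12.3 and 15.9 TPM in the controls and 12.9, 10.5 and 10.8 TPM in GJB2-MO. For its neighbour hoxa10b it was 12.03, 12.7 and 14.6 TPM against 14.5, 11.3 and 15.2 TPM, and the groups again overlapped.

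In hoxba the level of hoxb8a was 22.0, 24.7 and 23.1 TPM in the controls and 17.8, 21.3 and 22.1 TPM in GJB2-MO. The level of hoxb5a was 21.9, 24.1 and 22.1 TPM against 16.1, 18.9 and 17.8 TPM. Every control library stood above every GJB2-MO library for hoxb5a. In hoxca the level of hoxc6a was 31.1, 33.7 and 33.0 TPM against 27.9, 24.8 and 25.1 TPM, also without overlap. The level of hoxc12a, a posterior gene, was 24.9, 22.6 and 24.1 TPM against 22.8, 20.7 and 19.6 TPM. Here control 2 lay below GJB2-MO library 1.

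In hoxcb the level of hoxc12b was 3.22, 5.08 and 5.06 TPM in the controls and 4.24, 5.07 and 3.49 TPM in GJB2-MO. The level of hoxc6b was 2.92, 3.25 and 3.12 TPM against 3.09, 2.43 and 2.65 TPM. Both genes overlapped between the groups and stood far below their hoxca partners in TPM. In hoxda the level of hoxd9a was 11.9, 12.6 and 13.9 TPM against 12.2, 11.0 and 11.8 TPM. The level of hoxd4a, a gene with a forward limit in the hindbrain, was 10.7, 11.0 and 11.5 TPM against 12.7, 10.7 and 13.005 TPM, with overlap in TPM in both genes.

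Duplicated partners were seldom at the same level. In 11 pairs both the a and the b gene are in the table, and in each pair the same partner was higher in all 6 libraries. Within the hoxa clusters it was the b partner. The control level of hoxa11b was 11.7 ± 0.405 TPM against 1.39 ± 0.362 TPM for hoxa11a, a ratio of 8.46, while hoxa9b stood 1.96 times and hoxa13b 1.60 times above its partner. Within the hoxc clusters it was the a partner, at 10.5 times for hoxc6a over hoxc6b, 5.36 times for hoxc12a, 4.12 times for hoxc13a and 2.67 times for hoxc11a. These ratios also depend on the implied lengths. They were 696 bp for hoxc6a and 4178 bp for hoxc6b, and 852 bp for hoxa11b and 1639 bp for hoxa11a. For hoxc12a and hoxc12b they were closer, at 926 and 852 bp. In CPM the controls stood at 13.9 for hoxc6a and 7.96 for hoxc6b, and at 6.16 for hoxa11b and 1.40 for hoxa11a.

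Gene models limit these levels. The spans of 5 Hox genes hold other Hox genes. The span of hoxc10a (GRCz11, chromosome 23, 35969446 to 36086900, plus strand) holds hoxc11a, hoxc12a and hoxc13a, and that of hoxc3a (36087200 to 36149042) holds hoxc4a, hoxc5a, hoxc6a, hoxc8a and hoxc9a. The span of hoxb3a (chromosome 3, 23698029 to 23749406, plus strand) holds hoxb4a, hoxb5a and hoxb6a, that of hoxa3a holds hoxa4a and hoxa5a, and that of hoxd3a holds hoxd4a. In all, 19 of the 49 spans overlap another Hox span, so reads of shared or neighbouring transcripts may be assigned to either gene, which was not tested. The lengths implied by the authors' counts and FPKM were under 700 bp for 3 genes, 696 bp for hoxc6a, 687 bp for hoxb6a and 684 bp for hoxa5a, which are among the 6 highest in TPM. For comparison, the implied length of hoxb3a was 6944 bp.

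The 4 genes of hoxbb were close to undetected. Summed over rows, hoxb1b held 1, 2 and 1 counts in controls 1 to 3 and 2, 3 and 1 in GJB2-MO libraries 1 to 3. hoxb5b held 1, 6 and 6 counts against 3, 5 and 6, hoxb6b held 3, 3 and 3 against 3, 4 and 6, and hoxb8b held 0, 3 and 4 against 3, 1 and 2. The partner hoxb5a in hoxba stood 85.9 times above hoxb5b in control TPM. These 4 genes are also the only Hox genes with a further row in the table (hoxb1b_1 and so on), and those further rows were at 0 in all 6 libraries.

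The run of low counts did not end at the Hox genes. On chromosome 12 all 8 loci from ttll6 (start 27096952) to skap1 (end 27206904), hoxbb among them, have further rows at 0, and none held more than 47 counts over the 6 libraries. Just outside on one side, srcap, with 1 row, held between 1009 and 1503 counts per library. On the other side psme3, whose further row was at 0 too, held 12, 445 and 174 counts in control libraries against 268, 335 and 227 in GJB2-MO libraries. Over the table, 848 of 1496 genes whose further rows were all at 0 (56.7%) held at most 20 counts over the 6 libraries, against 36.5% of genes with 1 row. Among all 6260 genes with further rows the share was 24.6%. The set at 56.7% was chosen for 0 counts in part of its own total, so its share is not a like comparison. The low hoxbb values are therefore reported as levels in this table; whether reads of these loci were left out of the counts was not tested.

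**Figure D2:**
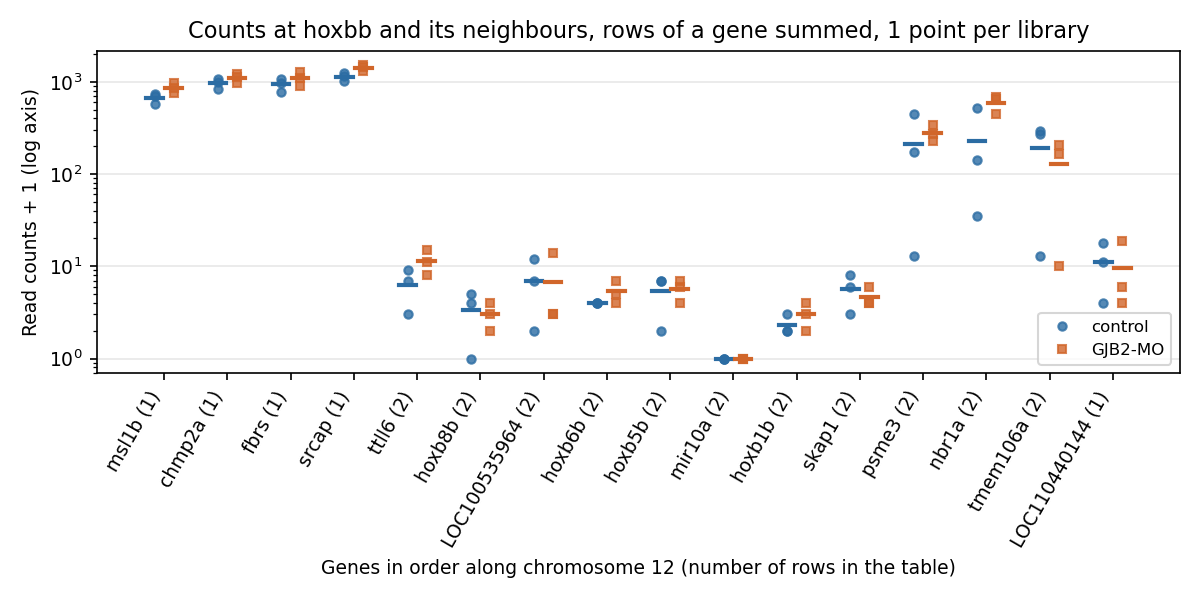
Read counts plus 1 on a log axis for hoxbb and its neighbours in order along chromosome 12, with the number of table rows in brackets; circles are control libraries, squares GJB2-MO libraries and bars the group means. The genes from ttll6 to skap1 lie at no more than 14 counts in any library, below srcap, at 1009 to 1503 counts.

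No Hox gene changed past the test between GJB2-MO and control larvae. Counts of the summed rows were compared with edgeR's quasi-likelihood test, and a gene was called at a Benjamini-Hochberg adjusted p under 0.05 over all 22247 genes tested. Of the 45 Hox genes tested, 0 were called, where 6.19% of all genes tested were called, 2.88% higher and 3.31% lower. DESeq2 also called 0, where it called 6.25% of all genes, and edgeR on the rows as deposited called 0, where it called 8.31% of all rows. At an unadjusted p under 0.05, edgeR counted 3 Hox genes (6.67%) against 21.7% of all genes, and DESeq2 counted 1 against 16.1%. The 4 hoxbb genes did not pass the filter on low counts.

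The intervals show what sizes of change these libraries leave room for. For 44 of 45 genes the 95% interval of the log2 fold change lay within 1 unit of 0, that is, within a doubling or halving, against 79.9% of all genes tested. Within 0.5 unit of 0 lay 25 of 45 (55.6%) against 49.4%. The exception to the first bound was hoxc13b, with an interval from -1.11 to 0.17. The tightest interval was that of hoxb3a, from -0.24 to 0.12, and the widest that of hoxa11a, from -0.74 to 0.92, on 145 to 4445 counts per tested gene over the 6 libraries. The median standard error was 0.15 for Hox genes and 0.14 for all genes.

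**Figure D3:**
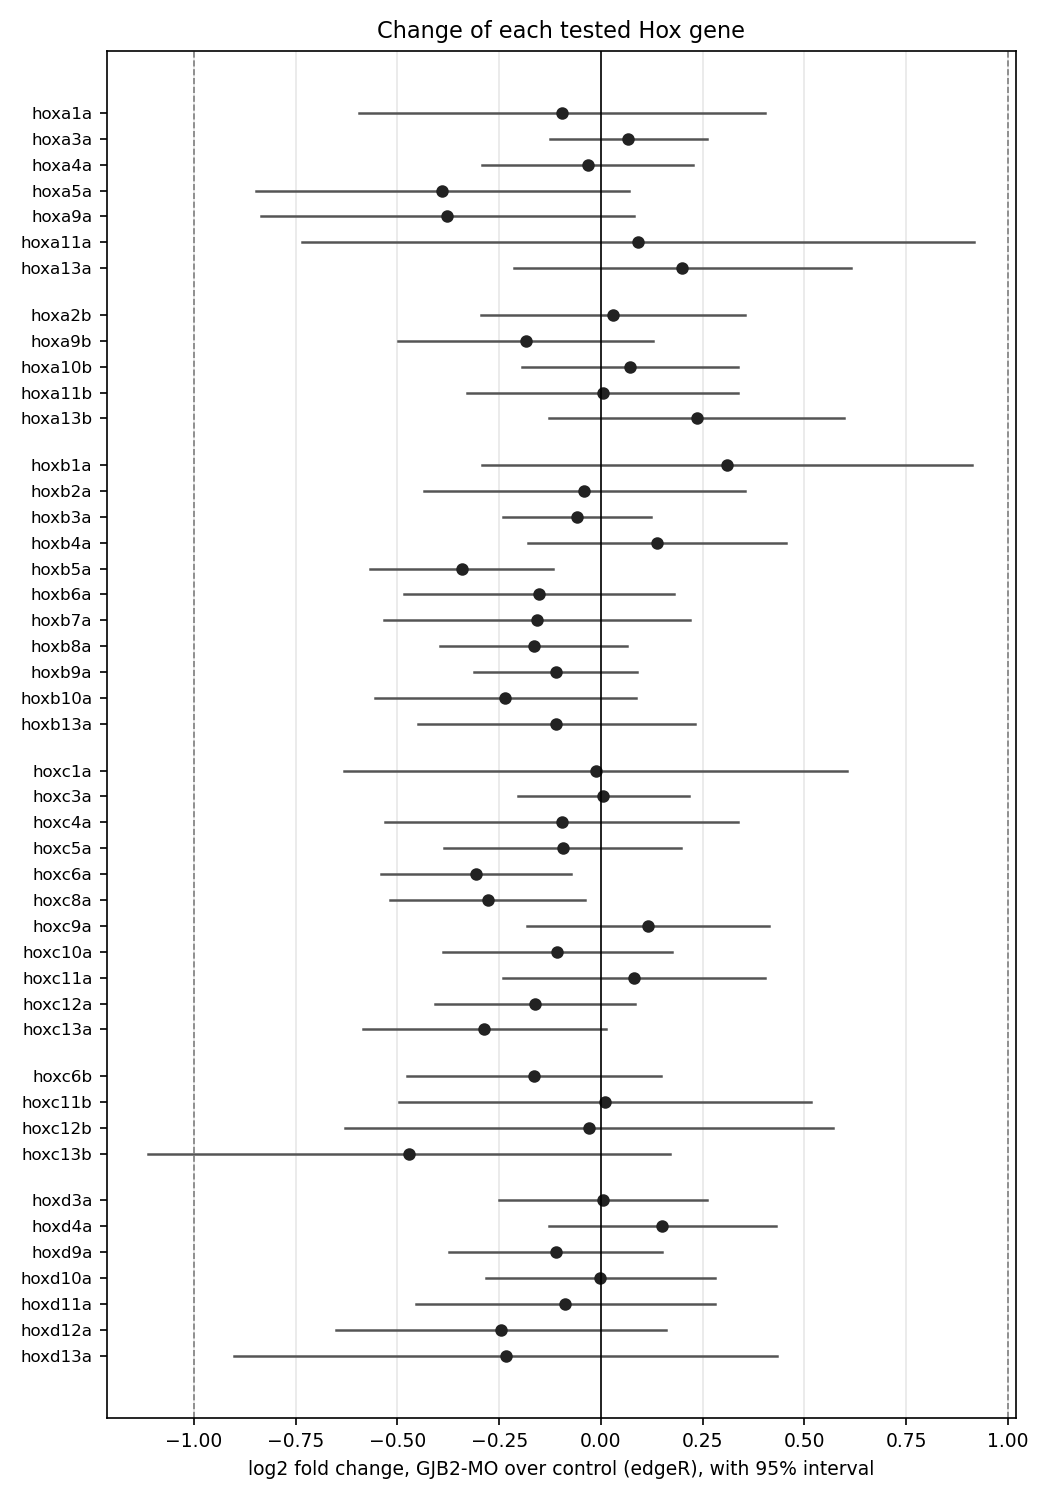
Log2 fold change of GJB2-MO over control (x axis) with its 95% interval for each of the 45 tested Hox genes, grouped by cluster and ordered by paralogue number; dashed lines mark 1 unit on either side of 0. All points lie between -0.47 and 0.31, and only the interval of hoxc13b crosses a dashed line.

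The 5 genes with the smallest p-values all had values below 0. Levels between groups are given as CPM, counts per 1e6 scaled counts. hoxb5a, which acts at the hindbrain to trunk transition, stood at 24.5, 26.3 and 23.8 CPM in the controls and 17.5, 21.9 and 19.4 CPM in GJB2-MO, a log2 fold change of -0.34 ± 0.10 (SE, edgeR adjusted p = 0.0759). Without GJB2-MO library 2 its value was -0.43 and it was called (adjusted p = 0.0354), the only call of a Hox gene in any alternative; over all alternatives its adjusted p ran from 0.0354 to 0.229. hoxc6a, a trunk gene, stood at 13.6, 14.3 and 13.9 CPM against 11.9, 11.2 and 10.7 CPM (-0.31 ± 0.11, adjusted p = 0.120). The groups did not overlap in either gene.

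The next 3 by p-value were hoxc8a and hoxc13a of hoxca and hoxa5a of hoxaa. hoxc8a, another trunk gene, stood at 18.0, 23.1 and 20.8 CPM against 16.9, 16.3 and 17.9 CPM (-0.28 ± 0.11, adjusted p = 0.163). Here the lowest control and the highest GJB2-MO library almost met, without overlap. hoxc13a, at the 5′ end of the cluster, stood at 8.57, 8.49 and 8.07 CPM against 6.40, 7.03 and 7.17 CPM (-0.29 ± 0.14, adjusted p = 0.251). hoxa5a stood at 5.04, 6.92 and 8.24 CPM against 4.41, 4.89 and 6.17 CPM (-0.39 ± 0.21, adjusted p = 0.312), with overlapping groups.

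The 5 largest changes in size were those of hoxa5a and hoxb5a, above, and of hoxc13b, hoxa9a and hoxb1a. hoxc13b stood at 2.35, 3.01 and 2.79 CPM in the controls and 1.93, 2.65 and 1.26 CPM in GJB2-MO (-0.47 ± 0.29, adjusted p = 0.390). hoxa9a stood at 6.29, 7.89 and 7.47 CPM against 6.57, 3.85 and 6.29 CPM (-0.38 ± 0.21, adjusted p = 0.331), with GJB2-MO library 2 lowest. hoxb1a had the largest value above 0, at 1.73, 2.29 and 1.36 CPM against 2.10, 2.13 and 2.45 CPM (0.31 ± 0.27, adjusted p = 0.563). The groups overlapped in each of hoxc13b, hoxa9a and hoxb1a. These values moved when 1 library was left out, with no call. The log2 fold change of hoxc13b was -0.76 without GJB2-MO library 2 and -0.24 without GJB2-MO library 3, and that of hoxa9a was -0.17 without GJB2-MO library 2. That of hoxa5a was -0.22 without control library 3, and that of hoxb1a was 0.53 without control library 2 and 0.14 without control library 3.

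The other high genes sat nearer to 0. The log2 fold change was -0.17 ± 0.11 for hoxb8a, -0.16 ± 0.11 for hoxc12a, -0.16 ± 0.14 for hoxc6b, -0.18 ± 0.14 for hoxa9b and -0.11 ± 0.12 for hoxd9a. It was -0.03 ± 0.12 for hoxa4a, -0.03 ± 0.27 for hoxc12b, 0.07 ± 0.12 for hoxa10b and 0.15 ± 0.13 for hoxd4a. The remaining 28 tested genes ran from -0.25 to 0.23, with control levels between 1.39 and 17.9 TPM, and their smallest edgeR adjusted p was 0.393.

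Most Hox values lay slightly below 0. The median log2 fold change was -0.09 over the 45 Hox genes and 0.01 over all genes tested, and 30 of 45 Hox genes (66.7%) lay below 0 against 48.6% of all genes. Group ranges in CPM did not overlap in 8 Hox genes that were lower in GJB2-MO (17.8%, background 14.1%) and in 3 that were higher (6.67%, background 13.7%), namely hoxa13a, hoxa13b and hoxd4a. Among the lower genes, the lowest control nearly met the highest GJB2-MO library in some. This was 25.43 against 25.40 CPM for hoxb8a, 17.97 against 17.87 for hoxc8a and 10.02 against 9.99 for hoxd9a. In TPM the groups overlapped in hoxb8a, hoxc8a and hoxd9a, and also in hoxd4a. By class the median was 0.01 for the 9 anterior genes tested, -0.16 for the 13 central genes and -0.11 for the 23 posterior genes. By cluster it ran from -0.11 in hoxba to 0.03 in hoxab. These medians describe the members and carry no test. Without control library 2 the Hox median was -0.04, and without GJB2-MO library 1 it was -0.02.

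Summed levels of the Hox genes were compared without a test. The Hox total was 422, 469 and 468 TPM in the controls and 412, 407 and 421 TPM in GJB2-MO, with control 1 just above the highest GJB2-MO library. In CPM the totals overlapped, at 456, 489 and 477 against 433, 457 and 448 CPM. The anterior sum was 55.2, 62.3 and 58.2 TPM against 55.9, 58.7 and 60.03 TPM, with full overlap. The central sum was 177, 212 and 205 TPM against 166, 171 and 180 TPM, where the lowest control lay below GJB2-MO library 3. The posterior sum was 190.28, 195 and 205 TPM against 190.13, 177 and 181 TPM, narrowly without overlap. In CPM the posterior sum was 173, 175 and 182 against 170, 166 and 163, also without overlap. The central sum overlapped in CPM as well, at 151, 176 and 165 against 137, 153 and 150. By paralogue group, controls and GJB2-MO libraries did not overlap in summed TPM in groups 6, 12 and 13, each higher in the controls. In CPM they did not overlap in groups 5, 6, 8 and 12, so for groups 5, 8 and 13 the separation differed between the scales. Such separation is common: of all single genes tested, 27.8% did not overlap in CPM, 14.1% lower and 13.7% higher in GJB2-MO. No such share was computed for sums.

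**Figure D4:**
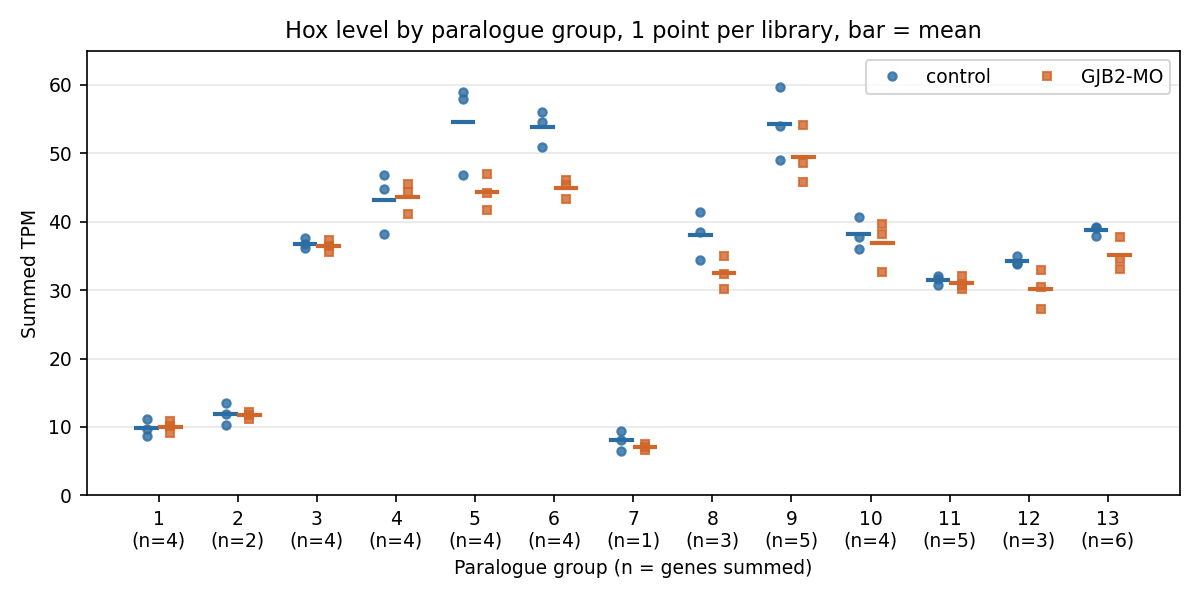
Summed TPM of the Hox genes of each paralogue group (y axis) by group number (x axis), with the number of genes summed in brackets; circles are control libraries, squares GJB2-MO libraries and bars the group means. The groups of libraries overlap in paralogue groups 1 to 4, and in groups 6, 12 and 13 every control lies above every GJB2-MO library. Of all single genes tested, 27.8% did not overlap in CPM.

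Among genes that work with or on Hox genes, 0 to 2 were called in each list. Of 15 TALE cofactors, 0 were called higher and 2 lower (13.3%), against 2.88% and 3.31% of all genes, with a median log2 fold change of -0.08. In edgeR 5 of the 15 had an unadjusted p under 0.05, against 21.7% of all genes. These were meis1a, meis1b, meis2a, pbx4 and tgif1, all with values below 0. Of these, tgif1 is on the list but outside the Meis, Pbx and Pknox families named above as cofactors. meis2a stood at 81.0, 92.6 and 96.1 CPM in the controls and 66.9, 62.1 and 71.3 CPM in GJB2-MO, a log2 fold change of -0.43 ± 0.08 (SE, edgeR adjusted p = 0.0120). pbx4, the main Pbx partner of Hox proteins in the early zebrafish embryo, stood at 64.9, 67.2 and 62.0 CPM against 48.0, 54.9 and 54.2 CPM (-0.31 ± 0.08, adjusted p = 0.0368). All controls lay above all GJB2-MO libraries in both. The meis2a call was lost without control library 2 or 3 (adjusted p of 0.0550 and 0.0559), and that of pbx4 without any library other than GJB2-MO library 2 (0.0760 to 0.135).

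Of 24 retinoic acid genes, 6 had an unadjusted p under 0.05 in edgeR, against 21.7% of all genes. Of the 24, 1 was called higher and 0 lower (4.17%), against 2.88% and 3.31% of all genes, with a median of -0.09. This was rarab, a retinoic acid receptor, at 6.77, 8.13 and 6.46 CPM against 11.5, 14.3 and 10.4 CPM (0.76 ± 0.16, edgeR adjusted p = 0.0174). Its 2 rows moved differently, with rarab at 64, 60 and 61 counts against 66, 252 and 74, and rarab_1 at 34, 75 and 48 against 143, 22 and 92. The plain row alone was not called (adjusted p = 0.397), and the sum lost its call without control library 1 or 3 or GJB2-MO library 2 (adjusted p of 0.0541, 0.0692 and 0.0518). aldh1a2, which makes retinoic acid and was chosen after its values were seen, held 20, 572 and 815 counts in control libraries against 68, 174 and 62 in GJB2-MO libraries. Nearly all of these counts were on its row aldh1a2_1, and its controls alone spread from 1.38 to 48.3 CPM, so it was too variable to compare (adjusted p = 0.394).

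The remaining lists were near the background in calls. Of 33 Polycomb and trithorax genes, 0 were called higher and 1 lower (3.03%), against 2.88% and 3.31% of all genes, with a median of -0.06. In edgeR 9 of the 33 had an unadjusted p under 0.05, against 21.7% of all genes. rbbp5, a core subunit of trithorax-type methyltransferases, stood at 32.8, 32.1 and 33.0 CPM against 25.05, 26.9 and 26.4 CPM (-0.32 ± 0.08, edgeR adjusted p = 0.0323), without overlap. Of 17 ParaHox, Cdx, Evx and axial genes, 0 were called in edgeR and in DESeq2 and 1 had an unadjusted p under 0.05, with a median of -0.07. That one, evx2, lies beside hoxda and stood at 4.63, 5.00 and 4.45 CPM against 3.31, 3.90 and 2.52 CPM (-0.53 ± 0.21, adjusted p = 0.163), and cdx1b was at -0.43 ± 0.20 (adjusted p = 0.251). Of 17 fin genes, 0 were called higher and 1 lower (5.88%), and 4 had an unadjusted p under 0.05, with a median of 0.04. hmcn1, a hemicentin of the fin fold, stood at 34.6, 34.6 and 40.2 CPM against 30.2, 28.0 and 27.3 CPM (-0.36 ± 0.09, adjusted p = 0.0375), without overlap. The call of rbbp5 was lost in DESeq2 (adjusted p = 0.0751) and without any library other than GJB2-MO library 2, and that of hmcn1 without any 1 of the 6 libraries.

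**Figure D5:**
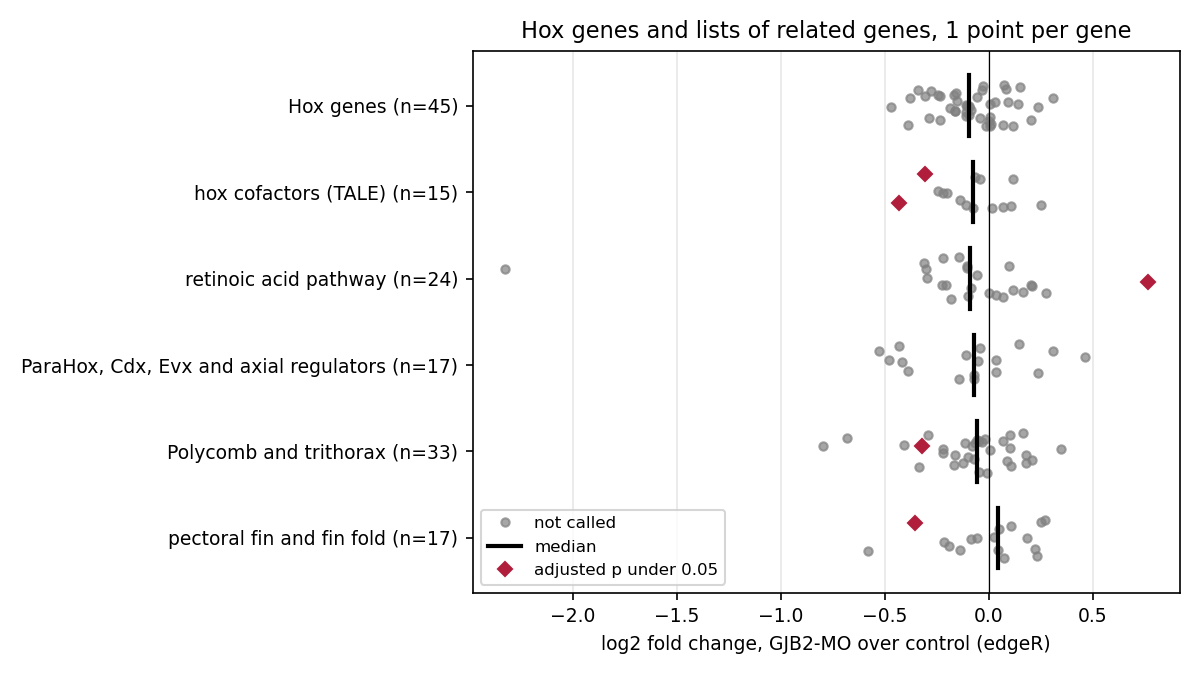
Log2 fold change of GJB2-MO over control (x axis) for the tested Hox genes and 5 lists of related genes, 1 point per gene; red diamonds passed an adjusted p under 0.05 and black bars are medians. No Hox gene is a diamond, and the medians of all 6 sets lie between -0.09 and 0.04.

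Within the clusters or up to 30000 bp beside them the table holds 31 other loci. Of these, 13 were tested, 10 with values above 0 and 3 below 0, where 48.6% of all genes tested lay below 0. edgeR and DESeq2 called 0 of these 13, where they called 6.19% and 6.25% of all genes. In edgeR 5 of the 13 had an unadjusted p under 0.05, against 21.7% of all genes. These were calcoco1a and srcap, with values above 0, and hibadhb, rarga and evx2, with values below 0. calcoco1a, on the minus strand within the hoxca span, held 1340, 1377 and 1404 counts in control libraries against 1762, 1959 and 1635 in GJB2-MO libraries. Its log2 fold change was 0.22 ± 0.07 (SE, edgeR adjusted p = 0.0775), above 0 where 8 of the 11 hoxca genes lay below 0. Its paralogue calcoco1b in hoxcb was at 0.44 ± 0.21 (adjusted p = 0.273). In the other direction, rarga beside hoxca was at -0.22 ± 0.07 (adjusted p = 0.0801) and hibadhb beside hoxab at -0.21 ± 0.06 (adjusted p = 0.0791). Of 9 microRNA rows of the mir10 and mir196 families, 2 held any count, with at most 2 counts over the 6 libraries; the libraries were selected for poly-A RNA. evx1, annotated on the minus strand across hoxaa, stood at 4.17 ± 0.360 CPM against 4.90 ± 0.284 CPM (0.23 ± 0.17 on the log2 scale). No source used here states whether counting was strand-aware, and whether evx1 reads were kept apart from those of hoxaa genes was not tested.

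Markers of tissues that use Hox genes were measured in the same libraries, and all listed markers held counts. Over all genes tested, edgeR called 3.31% lower and 2.88% higher, DESeq2 called 6.25%, and 21.7% had an unadjusted p under 0.05 in edgeR. Of 6 cartilage markers, 5 were called lower in edgeR and 4 called in DESeq2, and their summed level was 1852 to 2237 CPM in the controls and 1332 to 1438 CPM in GJB2-MO. Of 6 neural progenitor markers, 1 was called lower in edgeR and 1 called in DESeq2 (summed level 570 to 602 against 508 to 512 CPM). Of 6 skeletal muscle markers 1 was called lower in edgeR and 3 called in DESeq2 (29648 to 35357 against 27190 to 29801 CPM). In edgeR 5 of the cartilage, 2 of the progenitor and 4 of the muscle markers had an unadjusted p under 0.05. The largest member of the progenitor sum was fabp7a, at 301 ± 10.1 against 234 ± 1.67 CPM, while sox19a and sox3 had log2 fold changes of 0.07 and 0.14. The largest member of the muscle sum was actc1b, at 22653 ± 2184 against 19287 ± 970 CPM. The median log2 fold change of the muscle markers was -0.24, with myhz2 and smyhc1 at 0.07 and 0.05. The lowest, ckma, was at -1.38 ± 0.36 (SE, edgeR adjusted p = 0.131). Its controls were uneven, at 722, 630 and 1356 CPM against 328, 407 and 309 CPM in GJB2-MO. Of 6 neuron markers 0 were called in edgeR or DESeq2 (855 to 915 against 900 to 950 CPM), and of 9 spinal and hindbrain neuron markers 0 were called by either (174 to 176 against 166 to 193 CPM), each list with 1 unadjusted p under 0.05. Of 6 gut, 6 pronephros and 6 forebrain and midbrain markers edgeR called 0, with 0, 2 and 0 at an unadjusted p under 0.05, and DESeq2 called 0, 1 and 0. Summed levels of the forebrain and midbrain markers, regions where Hox genes are silent, were 83.6 to 97.5 against 82.5 to 105 CPM. In whole larvae it cannot be told whether these markers were expressed only in those regions. The part of these shifts in the Hox values was not tested.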

How the data were processed

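Whole zebrafish larvae were profiled by poly-A RNA sequencing, 3 control and 3 GJB2-MO libraries. Read counts, FPKM and TPM per row were deposited by the authors; the counts are whole numbers and not normalized, FPKM deposited by the authors is scaled by length and reads, and TPM deposited by the authors sums to 1e6 per library. The submitters' processing notes name HISAT2, RSEM, StringTie 1.3.1 and the GRCz11 build, without saying what each did. Coordinates are those of the deposited table.

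Rows were summed per symbol after removal of a trailing number. Genes were kept with filterByExpr (min.count 10, min.total.count 15), scaled with TMM and tested with edgeR 4.0.16 (quasi-likelihood, robust, no covariate) in R 4.3.3; adjusted p-values use Benjamini-Hochberg over all genes tested. DESeq2 1.42.0, RLE scaling, other filters, unsummed rows, a replicate block and omission of each library were alternatives. The script was tested on simulated data. Levels between genes are TPM summed per symbol; standard errors come from the model.

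Genes named with values per library were those called, the 2 highest by control TPM in each cluster, the 5 with the smallest p and the 5 with the largest change. From the other lists these were the called genes, up to 4 per list, or 2 with values where none was called. Older symbols in a list were matched through RefSeq synonyms of the GRCz12tu assembly, so some listed names share 1 gene. Members and lists were chosen with earlier results of these data known. One listed symbol, rnf1, was not matched. Hox sequences were not used here.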

Additional observations from a re-analysis of the deposited data

How the results depend on the processing

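The count of 0 called Hox genes held under RLE scaling, DESeq2, no filter, a minimum count of 50, rows as deposited, no robust estimation and the replicate block, and ran from 0 to 1 when 1 library was left out (hoxb5a without GJB2-MO library 2). Leaving out 1 library gave 579 to 1070 called genes over the whole table, 0 to 2 called TALE cofactors, 0 to 1 retinoic acid genes, 0 to 1 Polycomb and trithorax genes and 0 to 0 fin genes, and moved the Hox median between -0.128 and -0.0197. The value of hoxa4a ranged from -0.118 to 0.0224 and that of hoxc12b from -0.210 to 0.104, so these changed sign, without a call in any setting. Without robust estimation 1 cofactor and 0 fin genes were called. With rows as deposited 2 retinoic acid genes and 2 Polycomb and trithorax genes were called, with no filter 2 of the latter, and with DESeq2 0; the cause was not tested. Same-numbered libraries of the groups correlated at -0.0328, 0.0562 and 0.00916 in their deviations from the group means, so the numbers were not taken as pairs; the replicate block left 1362 called genes, against 1378, and 0 called Hox genes, and 0 fin genes, where hmcn1 lost its call (adjusted p = 0.0508). Of 309 values of named genes under alternatives, 278 kept direction and side of the threshold. Counts per gene limit the low members most: the interval of hoxa11a spans 1.65 log2 units, and that of hoxb3a 0.363.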

Other observations

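All Hox genes tested in paralogue groups 5 to 8 had values below 0, a grouping chosen after the values were seen. These 9 genes were hoxa5a, hoxb5a, hoxc5a, hoxb6a, hoxc6a, hoxc6b, hoxb7a, hoxb8a and hoxc8a, from 4 clusters, with log2 fold changes from -0.39 to -0.09 and a median of -0.17. None was called, and 48.6% of all genes tested lay below 0. All 9 stayed below 0 in each of the 13 alternatives, including omission of each library. These alternatives reuse the libraries from which the grouping was chosen, so they are not separate evidence. With no filter the hoxbb genes of these groups were tested too, and 11 of the 12 genes lay below 0. Their summed level, with the 3 hoxbb genes of these groups, was 139, 165 and 160 TPM in the controls and 125, 127 and 135 TPM in GJB2-MO, without overlap. Of all single genes tested, 14.1% were lower in GJB2-MO without overlap in CPM. On the anterior side, 2 of 4 genes of paralogue group 4, 1 of 4 of group 3, 1 of 2 of group 2 and 2 of 3 of group 1 lay below 0. On the posterior side this was 4 of 5 in group 9, 3 of 4 in group 10, 1 of 5 in group 11, 3 of 3 in group 12 and 4 of 6 in group 13, so values below 0 were not limited to groups 5 to 8. All 9 values come from the same 6 libraries and are not independent, and no test was made.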
